A study of Mus musculus with 4 samples.

Results

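The 10 genes named here were followed by name across control and Ythdf2-knockdown mouse embryonic stem cells (ESCs): the genes for 9 protein subunits of the endoribonucleases RNase P and RNase MRP, and Rida, which codes for the adaptor also called HRSP12. They were chosen for what their products do, and they make up 10 of the 49997 genes in the count table. The labels name E14 as the cell line, a pluripotent mouse line that came from the inner cell mass of a blastocyst. The study's methods describe ESCs that carry a tdTomato reporter under the MERVL promoter and were grown with serum replacement and leukemia inhibitory factor on gelatin. Both groups also carried a lentiviral short hairpin RNA (shRNA) vector and were kept as stable lines under puromycin. The hairpin was a scrambled sequence in the shScramble group and a sequence against Ythdf2 in the shYthdf2 group, with 2 libraries in each, and the labels do not say which hairpin sequence the shYthdf2 libraries carried. The methods call the 2 libraries of a group independent biological replicates, and nothing ties a library of one group to a library of the other.

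YTHDF2 is a cytoplasmic protein that binds mRNAs marked with N6-methyladenosine (m6A) and shortens their life. It does so by calling in the CCR4-NOT deadenylase, and, through HRSP12, by calling in RNase P/MRP, which cuts the RNA internally. RNase P and RNase MRP are ribonucleoproteins built on a catalytic RNA and a largely shared set of proteins, and they are best known for trimming the 5′ end of tRNA precursors and for cutting the internal spacer of the ribosomal RNA precursor. The comparison asked whether mRNA of the nuclease and its adaptor differed when YTHDF2, the protein that calls them in, was depleted.

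Of the 9 members that could be tested, edgeR, the main test, called 0 at an adjusted p under 0.05, and DESeq2 called 1, Pop7. Over the whole table edgeR called 3.91% of the genes tested, and DESeq2 called 4.66% of those with a read. Pop7 and Rpp25, which code for the RPP20 and RPP25 proteins that bind each other, had the lowest p-values. Each had both of its shYthdf2 values above both of its shScramble values, as did 26.2% of all genes tested. Rida and Pop1 had fitted differences near or below 0, with overlapping groups. Rpp14 had no reads in any library, and all of its exon bases are shared with another gene.

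The libraries held between 31113006 and 36422510 reads assigned to genes, of which between 0.0337% and 0.0419% fell in the members. CPM is the read count brought to a common library size by TMM scaling. For a gene listed at 0 the count was taken to allow up to 3 reads, or 0.0824 to 0.0964 CPM before TMM scaling. Each read of a pair was counted, so reads are not independent and this bound is too low. Intervals and bounds of this kind cover counting error only. The hairpin's target was checked first. Ythdf2 stood at 93.4 and 87.6 CPM in shScramble and at 31.8 and 30.2 CPM in shYthdf2, so it fell by 1.55 on the log2 scale (SE 0.11, adjusted p = 0.000693, edgeR). All 10 ESC markers examined were detected. Of these Tdgf1 fell (edgeR adjusted p = 0.0411), where 3.91% of all genes tested were called. An unadjusted p under 0.05 was found for 4 on the lower side and 0 on the higher side. Over all 18341 genes tested it was found for 1798 on the lower side and 2024 on the higher side. Both shYthdf2 values lay below both shScramble values for 5, as they did for 25.5% of all genes tested. The fitted log2 fold change was above 0 for 3 of the 10. Their summed level was 6795 and 6577 CPM in shScramble and 6403 and 5835 CPM in shYthdf2. Summed levels of other markers were small beside these, at 9.54 to 18.0 CPM for fibroblast genes, with Dcn at 0 in all libraries, and, for primitive endoderm genes, at 10.4 and 10.7 CPM in shScramble and 11.8 and 7.07 CPM in shYthdf2, which overlap. Neuroectoderm markers summed to 129 and 85.8 CPM in shScramble and to 199 and 143 CPM in shYthdf2, and 1 of the 3 tested, Tubb3, had an unadjusted p under 0.05 (adjusted p = 0.102, edgeR). Markers of 2C-like cells, a rare state in which genes of the 2-cell embryo are on, summed to 51.6 and 79.5 CPM in shScramble and to 102 and 264 CPM in shYthdf2. Of the 14 tested, 3 rose (Zscan4a, Usp17la and Usp17le, edgeR). An unadjusted p under 0.05 on the higher side was found for 13, against 11.0% of all genes tested. Tdpoz1 was at 0 in all libraries. The ESC, fibroblast, neuroectoderm and 2C-like sums did not overlap between the groups, and their part in the members' values was not tested. The neuroectoderm sum was mostly Tubb3 (means of 91.9 CPM in shScramble and 153 CPM in shYthdf2), while Pax6 and Sox1 overlapped between the groups. The fibroblast sum was mostly Thy1 (means of 14.2 CPM in shScramble and 10.7 CPM in shYthdf2), which also overlapped. In bulk RNA a smaller number of cells of one kind and less RNA per cell cannot be told apart.

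The promoters of 4 genes are shown because the results turn on them: Pop7 and Rpp25, the members nearest to the threshold, Rpp25l, a paralog of Rpp25, and Rpp14, whose start is also that of the gene that takes in its exons. Each run is the 250 bases before the gene's start in the RefSeq annotation of GRCm38.p6 (mm10), 5′ to 3′ on the gene's own strand, and capitals mark the GC box, a binding motif of SP/KLF factors, spelled GGGCGG and searched on both strands. The Pop7 window is chr5:137502430-137502679 on the minus strand, that of Rpp25 is chr9:57503852-57504101 on the plus strand, that of Rpp25l is chr4:41713518-41713767 on the minus strand, and that of Rpp14 is chr14:8080063-8080312 on the plus strand.
Pop7: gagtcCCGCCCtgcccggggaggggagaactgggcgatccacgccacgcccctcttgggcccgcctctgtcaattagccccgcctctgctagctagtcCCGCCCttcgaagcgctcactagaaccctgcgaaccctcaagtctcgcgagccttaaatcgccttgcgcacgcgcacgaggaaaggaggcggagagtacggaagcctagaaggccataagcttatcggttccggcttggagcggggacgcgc
Rpp25: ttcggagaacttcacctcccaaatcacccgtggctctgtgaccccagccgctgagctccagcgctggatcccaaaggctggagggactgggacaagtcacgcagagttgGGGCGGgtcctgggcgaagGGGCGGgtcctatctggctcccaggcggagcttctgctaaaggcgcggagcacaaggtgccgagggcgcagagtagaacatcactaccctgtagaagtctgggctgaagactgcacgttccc
Rpp25l: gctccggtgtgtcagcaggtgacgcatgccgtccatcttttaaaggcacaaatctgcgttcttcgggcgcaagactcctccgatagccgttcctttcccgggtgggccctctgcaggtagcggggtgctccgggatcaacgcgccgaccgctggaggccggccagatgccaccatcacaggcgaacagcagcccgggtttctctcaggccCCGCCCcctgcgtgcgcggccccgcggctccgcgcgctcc
Rpp14: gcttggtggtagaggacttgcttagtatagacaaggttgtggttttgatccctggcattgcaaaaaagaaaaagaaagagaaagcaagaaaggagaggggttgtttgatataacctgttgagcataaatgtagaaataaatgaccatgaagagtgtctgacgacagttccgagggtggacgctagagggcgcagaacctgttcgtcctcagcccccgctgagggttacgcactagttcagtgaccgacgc

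The Pop7 and Rpp25 windows each held 2 GC boxes and the Rpp25l window held 1. The RefSeq table had a promoter for 8 of the 10 members, and 4 of those 8 held a GC box (Pop5, Pop7, Rpp25 and Rpp40), against 32.7% of all 32851 promoters of this length. This background was not limited to the genes tested here. For Pop4, Pop5, Rpp30, Rpp38 and Rpp40 the start in that table lies inside the gene as counted here, so their windows do too, in whole or in part. Rida and Pop1 had no entry. The CCAAT box (CCAAT) was found in 1 of 8, Pop4, against 33.8% of all promoters. The ETS motif CCGGAAG (6.9% of all promoters), the E box CACGTG (6.0%) and the TATA box TATAAA (12.4%) were found in 0 of the 8. All motifs were searched on both strands, and none of the spelled motifs contains another. The Pop7 window had a GC content of 64.8% and 25 CpG dinucleotides, that of Rpp25 62.4% and 14, and that of Rpp25l 68.0% and 27, against medians of 52.4% and 6 over all promoters. The Rpp14 window had a GC content of 47.6% and 9 CpG dinucleotides.

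Rida, the adaptor that joins YTHDF2 to the nuclease, had 756 and 572 reads in shScramble and 652 and 618 reads in shYthdf2. Its level was 21.0 and 18.2 CPM against 19.1 and 17.3 CPM, so the groups overlapped and the highest and lowest library came from different groups. The means were 19.6 ± 2.01 CPM and 18.2 ± 1.28 CPM (SD, n = 2 each). The log2 fold change was -0.11 (SE 0.16, 95% interval -0.47 to 0.26, edgeR adjusted p = 0.763). The gene lies at chr15:34484022-34495246 on the minus strand of mm10, in 6 exon blocks. With 64 bases between the starts it is head to head with Pop1, at chr15:34495311-34530653 on the plus strand. Only genes that were tested here were searched as neighbours. Rida and Pop1, each the other's neighbour, were the 2 of the 10 members with a tested neighbour of this kind. A divergent tested neighbour within 1000 bases was found for 10.1% of the 18320 tested genes on chromosomes. Pairs whose starts overlap were not counted, which left out Rpp38 and Acbd7 (173 shared exon bases).

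Pop1, the largest protein subunit, which holds the RNA's core in place, had 2240 and 1596 reads in shScramble and 1806 and 2138 reads in shYthdf2. It stood at 62.2 and 50.7 CPM against 52.8 and 59.7 CPM, and the shYthdf2 values lay inside the range of the shScramble values. Its fitted log2 fold change was -0.0041 (SE 0.13, 95% interval -0.30 to 0.30, edgeR adjusted p = 0.991). Rida and Pop1, which are neighbours, were both highest in shScramble replicate 1, but their full order of libraries differed. The lowest library was shYthdf2 replicate 2 for Rida and shScramble replicate 2 for Pop1.

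Pop7 codes for RPP20, which pairs with RPP25 and sits with it on one arm of the RNA. Its read counts were 475 and 337 in shScramble and 799 and 645 in shYthdf2. Its level was 13.2 and 10.7 CPM in shScramble and 23.4 and 18.0 CPM in shYthdf2, and the groups did not overlap. The means of 11.9 ± 1.76 and 20.7 ± 3.78 CPM (SD, n = 2 each) corresponded to a fitted fold of 1.73. The log2 fold change was 0.79 (SE 0.20, 95% interval 0.36 to 1.23), with an unadjusted p of 0.00239 and an adjusted p of 0.0556 in edgeR, just short of the threshold of 0.05. Of all 18341 genes tested, 4.30% had a p at or below that of Pop7, and 14.0% had a log2 fold change of at least its size in either direction.

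Whether Pop7 passed depended on the setting. DESeq2 called it (log2 fold change 0.79, adjusted p = 0.00680), edgeR with no filter on low counts called it (adjusted p = 0.00227), and limma-voom did not (adjusted p = 0.0594). With shScramble replicate 1 left out the log2 fold change was 0.95 (edgeR adjusted p = 0.00529), and with shYthdf2 replicate 2 left out it was 0.97 (edgeR adjusted p = 0.000674). Dropping shScramble replicate 2 instead gave 0.65 (edgeR adjusted p = 0.119), and dropping shYthdf2 replicate 1 gave 0.59 (edgeR adjusted p = 0.157). The value stayed above 0 in all 16 refits, from 0.59 to 0.97, and 6 of them called the gene.

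Rpp25, the partner of RPP20 in the complex, was the member with the most reads, at 4429 and 3478 in shScramble and 5499 and 4977 in shYthdf2. Its level was 123 and 110 CPM against 161 and 139 CPM, with no overlap between the groups. The means were 117 ± 8.90 and 150 ± 15.4 CPM (SD, n = 2 each), a fitted fold of 1.28. The log2 fold change was 0.36 (SE 0.12, 95% interval 0.10 to 0.62), with an unadjusted p of 0.0115 and an adjusted p of 0.117 in edgeR. It was called in 3 of 16 refits, with log2 fold changes from 0.20 to 0.46 and adjusted p-values from 0.00395 to 0.495. Leaving out shYthdf2 replicate 2 gave the lowest of these p-values (edgeR log2 fold change 0.46).

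The other two subunit genes, outside the 10, were read beside this pair. Rpp25l, the paralog of Rpp25, stood at 32.0 and 29.3 CPM in shScramble and at 49.0 and 40.2 CPM in shYthdf2, again with no overlap. Its log2 fold change was 0.54 (SE 0.14, 95% interval 0.22 to 0.85, edgeR adjusted p = 0.0657). None of the 150-base windows of Rpp25 or Rpp25l, the length of a read, occurs in transcripts of another gene, so reads of the paralogs could be told apart. Rpp21, a subunit of RNase P, stood at 14.1 CPM in both shScramble libraries and at 17.6 and 16.7 CPM in shYthdf2 (log2 fold change 0.28, SE 0.16, edgeR adjusted p = 0.369).

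Pop7, Rpp25 and Rpp25l have GC-rich transcripts with few exon blocks. Pop7 (chr5:137501439-137502429, minus strand) has 2 exon blocks and 792 exon bases, Rpp25 (chr9:57504102-57505447, plus strand) has 1 block and 1346 bases, and Rpp25l (chr4:41712033-41713517, minus strand) has 2 blocks and 839 bases. The GC content of their longest transcripts was 56.3%, 59.1% and 59.2%, at percentiles 83.6, 93.6 and 93.9 of tested genes. Over the whole table the fold change moved with GC content: the median log2 fold change was -0.11 in the 10% of genes with the lowest GC content and 0.13 in the 10% with the highest. Rida, at 41.1% and percentile 8.73, lay at the other end. Rpp21, at 57.1% and with 5 exon blocks, had a log2 fold change of 0.28. Prorp, the nuclease of the mitochondrial RNase P, was at 44.4% and had a log2 fold change of 0.47. With a correction for GC content, chosen after seeing the data, the log2 fold change of Pop7 was 0.69 (edgeR adjusted p = 0.0820) and that of Rpp25 was 0.24 (edgeR unadjusted p = 0.0725, adjusted p = 0.304). The same correction put Rpp25l at 0.41 (edgeR adjusted p = 0.132), and it moved the median log2 fold change of the members from 0.12 to 0.18. The part of GC content in these values was not tested.

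**Figure D1:**
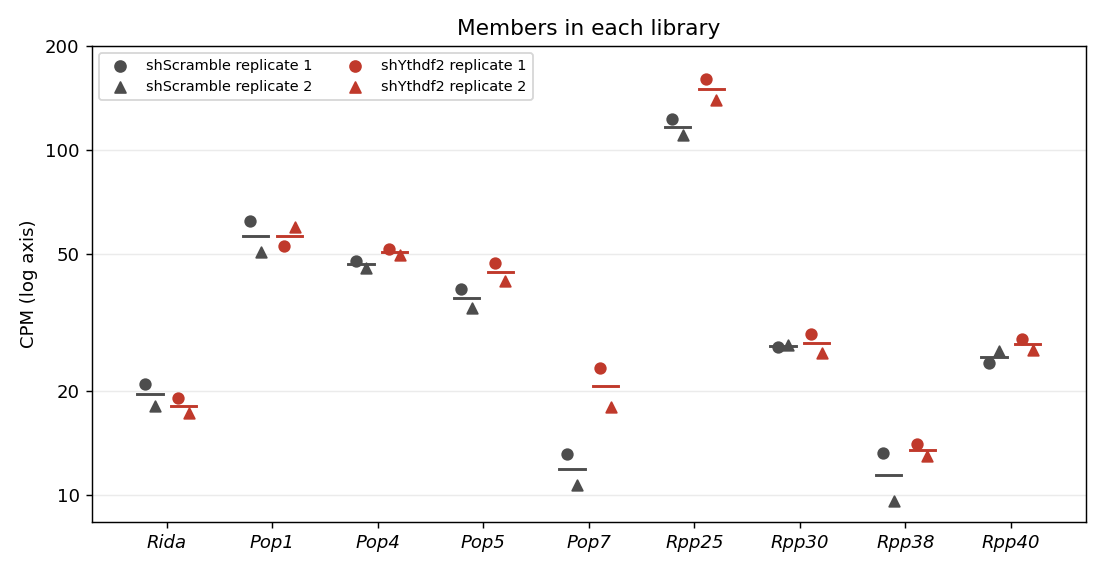
Level of each tested member in CPM (vertical log axis) in the 4 libraries, with circles for replicate 1, triangles for replicate 2 and a bar at each group mean. Pop7 is at 13.2 and 10.7 CPM in shScramble and 23.4 and 18.0 CPM in shYthdf2, while the 4 values of Rida lie between 17.3 and 21.0 CPM.

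The subunits that meet the catalytic core came next. Pop5, a small conserved protein that pairs with RPP30, had 1420 and 1099 reads in shScramble and 1607 and 1496 reads in shYthdf2. It stood at 39.4 and 34.9 CPM against 47.0 and 41.8 CPM, and the groups did not overlap. In the fit its log2 fold change was 0.26 (SE 0.13, 95% interval -0.04 to 0.55, edgeR adjusted p = 0.305).

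Rpp30, the partner of POP5, had 965 and 856 reads in shScramble and 1000 and 923 reads in shYthdf2. Its 26.8 and 27.2 CPM in shScramble lay between the 29.2 and 25.8 CPM of shYthdf2. This gave a log2 fold change of 0.028 (SE 0.14, 95% interval -0.29 to 0.34, edgeR adjusted p = 0.940). The gene is at chr19:36083689-36104773 on the plus strand, in 11 exon blocks.

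Rpp40, a subunit of the same part of the complex, had 872 and 823 reads in shScramble and 969 and 944 reads in shYthdf2. It stood at 24.2 and 26.1 CPM against 28.3 and 26.4 CPM, so the groups were parted by a gap of less than 1 CPM. With upper-quartile scaling they overlapped. The log2 fold change was 0.12 (SE 0.14, 95% interval -0.19 to 0.43, edgeR adjusted p = 0.681).

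Rpp14, which belongs with POP5, RPP30 and RPP40 in the human enzyme, had 0 reads in all 4 libraries and did not enter the test. The gene is at chr14:8080313-8091846 on the plus strand, with 6 exon blocks. All of its 2467 exon bases, 100% of them, are also exon bases of Htd2 on the same strand, a gene that codes for a mitochondrial enzyme of fatty acid synthesis. Htd2 has only 13 bases of its own, chr14:8083795-8083807, and it too had 0 reads in all 4 libraries. The counting tool leaves out a read that lies over exons of more than 1 gene unless told otherwise, so no read of this transcript could be counted for Rpp14. Its 0 is therefore no measurement of its level.

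Rpp38, a protein that binds the kink-turn of the RNA, shared part of its exons in the same way. The gene is at chr2:3326548-3332986 on the minus strand, and 2503 of its 5225 exon bases (47.9%) also belong to genes on the opposite strand, 2330 to Nmt2 and 173 to Acbd7. The table was counted without strand, so reads over these bases were left out for both genes, and the 2722 unshared bases carried the count. Rpp38 had 476 and 304 reads in shScramble and 482 and 465 reads in shYthdf2, or 13.2 and 9.65 CPM against 14.1 and 13.0 CPM. The groups overlapped, and shScramble replicate 2 stood apart as the lowest value. As a log2 fold change this was 0.24 (SE 0.20, 95% interval -0.21 to 0.70, edgeR adjusted p = 0.552). Leaving out shScramble replicate 2 made it 0.035, and leaving out shScramble replicate 1 made it 0.49. For Nmt2 itself the fitted log2 value was -0.43 (SE 0.13, edgeR adjusted p = 0.107).

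**Figure D2:**
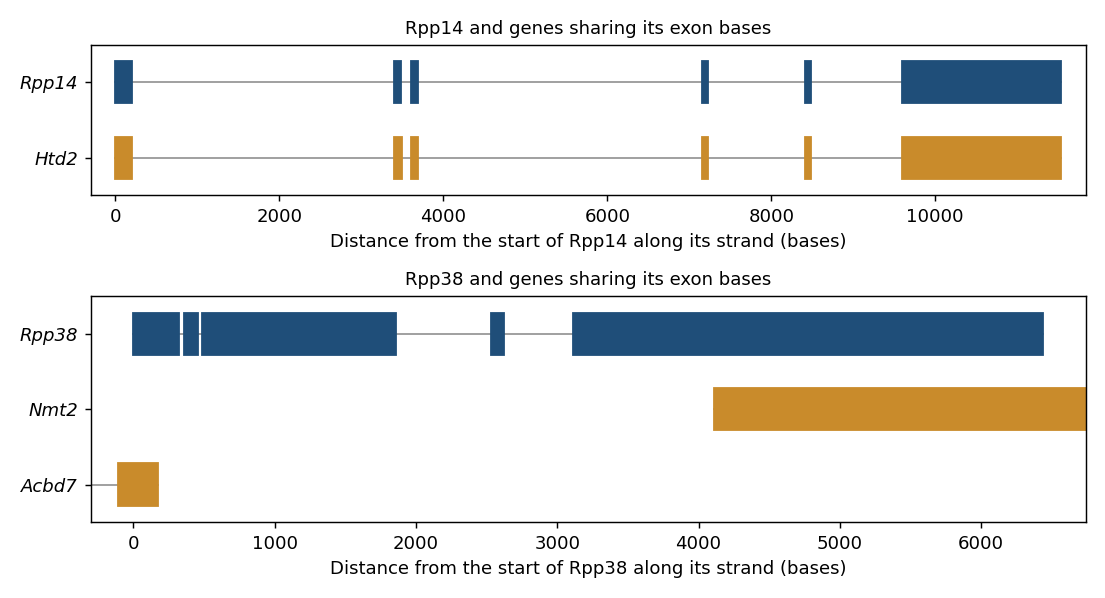
Exons (boxes) and introns (lines) of Rpp14 with Htd2, above, and of Rpp38 with Nmt2 and Acbd7, below, plotted by distance in bases from the start of Rpp14 or Rpp38 along its own strand, with Nmt2 and Acbd7 cut at the edge of the panel. All 2467 exon bases of Rpp14 lie under Htd2 exons, and 2330 and 173 of the 5225 exon bases of Rpp38 lie under Nmt2 and Acbd7.

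Pop4, which codes for RPP29, a partner of RPP21, had 1722 and 1434 reads in shScramble and 1762 and 1776 reads in shYthdf2. It stood at 47.8 and 45.5 CPM against 51.5 and 49.6 CPM, with no overlap between the groups. The log2 fold change was 0.12 (SE 0.11, 95% interval -0.14 to 0.37, edgeR adjusted p = 0.619).

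The members were then read as a list beside all genes. Of the 9 tested, 0 were called at an adjusted p under 0.05 in edgeR, where 3.91% of all 18341 genes were called. At an unadjusted p under 0.05 there were 2, Pop7 and Rpp25, both higher, where 20.8% of all genes passed in either direction and 11.0% passed on the higher side. DESeq2 called 1 at an adjusted p under 0.05, where it called 4.66% of the 30565 genes with a read. The groups did not overlap for 5 members that were higher in shYthdf2 (Pop4, Pop5, Pop7, Rpp25 and Rpp40) and for 0 that were lower, against 26.2% and 25.5% of all genes. With upper-quartile scaling the 5 became 4, without Rpp40, and with library totals alone they became 6, with Rpp38. The fitted log2 fold change was above 0 for 7 of 9 members, and its median was 0.12, against 0.0019 over all genes tested. The median absolute log2 fold change was 0.12 over the members and 0.25 over all genes, and Pop5, Pop7 and Rpp25 lay above the latter. At 2 libraries a group the median width of a member's 95% interval was 0.63 on the log2 scale, which bounds what differences could be seen.

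**Figure D3:**
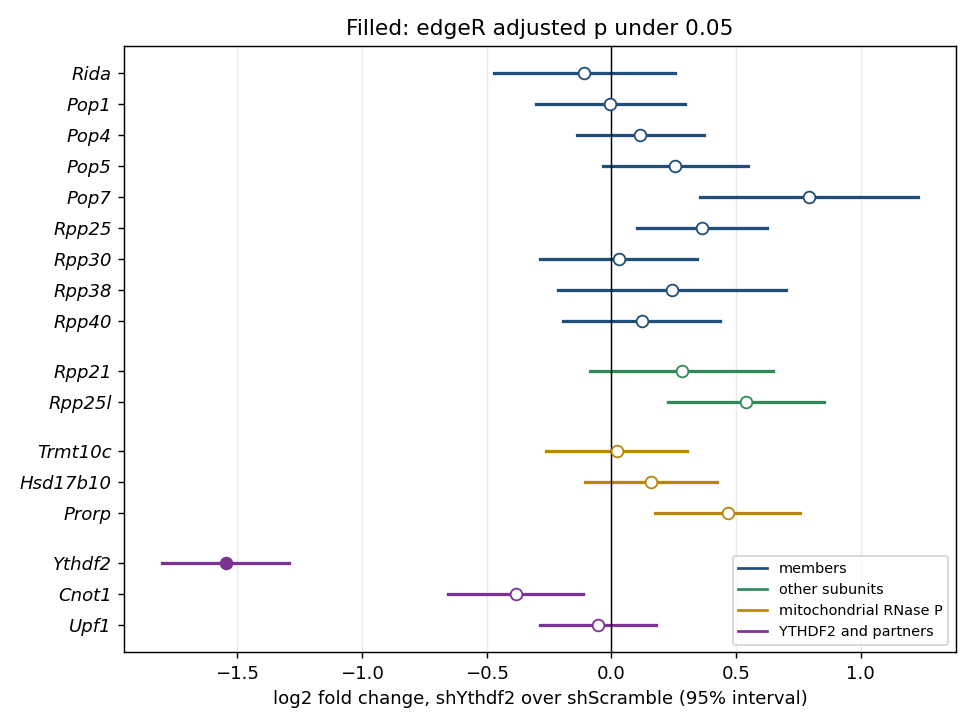
Fitted log2 fold change of shYthdf2 over shScramble (horizontal axis) with its 95% interval for the 9 tested members, the other subunits, the mitochondrial RNase P and YTHDF2 with its partners. Ythdf2 at -1.55 is the one filled point (edgeR adjusted p under 0.05), and among the members the intervals of Pop7 and Rpp25 lie above 0.

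Levels were compared between members only after division by length, as CPM per kilobase of exon, with the 2722 unshared bases for Rpp38. Rpp25 led by this measure, at 86.7 ± 6.61 CPM per kilobase in shScramble and 111 ± 11.4 in shYthdf2 (SD, n = 2 each), 2.97 times the next member. Pop4 was second, at 32.1 ± 1.12 and 34.7 ± 0.930 CPM per kilobase, and its 4 values did not overlap those of Pop5, the next in order. Pop5, Rpp30, Pop7 and Rida followed, between 15.1 and 26.1 CPM per kilobase as group means, and neighbours in this run overlapped. That order is by the mean of the 4 libraries. In shScramble the means ran Rpp30 22.8, Pop5 21.8, Rida 19.7 and Pop7 15.1 CPM per kilobase, and in shYthdf2 they ran Pop7 26.1, Pop5 26.0, Rpp30 23.3 and Rida 18.3. Pop1 lay apart below Rida at 12.4 CPM per kilobase in both groups. Rpp40 came next at 8.92 and 9.70 CPM per kilobase and Rpp38 last at 4.20 ± 0.927 and 4.98 ± 0.287. Dividing by the full deposited length would put Rpp38 at 2.39 CPM per kilobase over the 4 libraries.

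The partners RPP25 and RPP20 were thus read from transcripts of unequal level. The ratio of Rpp25 to Pop7, each in CPM per kilobase, was 5.49 and 6.07 in shScramble and 4.05 and 4.54 in shYthdf2. The ratio was lower in both knockdown libraries. It restates the fold changes of Rpp25 and Pop7 given above, and the difference between them was not tested.

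**Figure D4:**
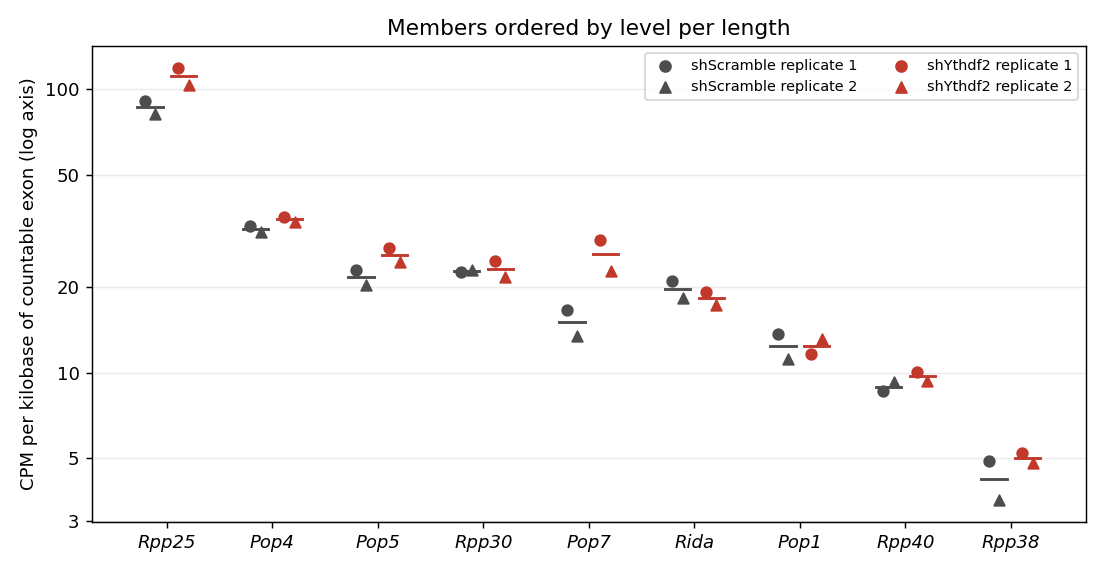
Level of each tested member in CPM per kilobase of countable exon (vertical log axis), ordered by the mean of the 4 libraries, with circles and triangles for replicates 1 and 2 and bars at group means. Rpp25 stands above the rest at 86.7 and 111 CPM per kilobase, and Rpp38 is lowest at 4.20 and 4.98.

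The RNA that does the cutting could hardly be seen in these libraries, which were selected for poly(A). Rpph1, the RNA of RNase P, had 26 and 33 reads in shScramble and 17 and 19 reads in shYthdf2, with no overlap (log2 fold change -0.77, edgeR adjusted p = 0.451). Rmrp, the RNA of RNase MRP, had 19 and 39 reads in shScramble and 19 and 3 reads in shYthdf2 (log2 fold change -1.46, edgeR adjusted p = 0.346). It rested on the library with 3 reads: without shYthdf2 replicate 1 edgeR gave -3.33 (adjusted p = 0.0482), and without shYthdf2 replicate 2 it gave -0.65 (adjusted p = 0.674). Of the RNase P RNA-like genes, Rprl1 had 0 reads in all libraries, Rprl2 had 4 reads in shScramble replicate 1 and 0 elsewhere, and Rprl3 had 1 read in shScramble replicate 2 and 0 elsewhere. At 3 to 39 reads a library, neither Rpph1 nor Rmrp passed the test over all 4 libraries.

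Mitochondria hold a separate RNase P made of protein alone. Prorp, its nuclease, stood at 26.2 and 27.7 CPM in shScramble and at 36.3 and 38.2 CPM in shYthdf2, with no overlap. Its log2 fold change was 0.47 (SE 0.13, edgeR adjusted p = 0.0796), and 603 of its exon bases are shared with Ppp2r3c on the opposite strand. Hsd17b10 and Trmt10c, the methyltransferase pair of this enzyme, had log2 fold changes of 0.16 (edgeR adjusted p = 0.499) and 0.021 (edgeR adjusted p = 0.950).

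The other routes by which YTHDF2 is known to act gave these values. Cnot1, the scaffold of CCR4-NOT, was at -0.38 on the log2 fold scale (SE 0.12, 95% interval -0.66 to -0.11). Its unadjusted p was 0.0103 and its adjusted p 0.111 in edgeR. Both of its shYthdf2 values lay below both shScramble values, as they did for 25.5% of all genes tested. Upf1, a helicase of mRNA decay, was at -0.06 (SE 0.10, edgeR adjusted p = 0.819). Together with Rida at -0.11, 0 of these 3 partners passed at an adjusted p under 0.05 in edgeR.

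Genes that act next to the nuclease were read from 2 further lists. Of 16 genes of tRNA maturation (3′ trimming, CCA addition, splicing and ligation), 0 passed at an adjusted p under 0.05 in edgeR and 1, Tsen34, in DESeq2. In edgeR 4 had an unadjusted p under 0.05, all of them higher, and the median log2 fold change was 0.10. Among them was Clp1, an RNA kinase of tRNA splicing, at 0.37 (SE 0.12, edgeR adjusted p = 0.121). Also among the 4, and named after their values were seen, were Tsen34 at 0.35 (edgeR adjusted p = 0.0965) and Thg1l at 0.35 (edgeR adjusted p = 0.150). Of 12 genes of ribosomal RNA spacer processing, 0 passed in edgeR and 1, Nol12, in DESeq2, 1 had an unadjusted p under 0.05 in edgeR, and the median was 0.061. Nol12 had the largest value of these at 0.45 (SE 0.13, edgeR adjusted p = 0.0837), and Rcl1 the next in size at -0.17 (edgeR adjusted p = 0.487).

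Over all 35 tested genes of the subunit, RNA, mitochondrial, tRNA and ribosomal RNA lists, 0 passed the adjusted test in edgeR (3.91% of all genes), 7 had an unadjusted p under 0.05 on the higher side (11.0% of all genes) and 0 on the lower side. DESeq2 called 4 of them at an adjusted p under 0.05: Rpp25l, Prorp, Tsen34 and Nol12. It called 4.66% of the 30565 genes with a read, a wider set that takes in genes below the edgeR filter. The median log2 fold change over the 35 was 0.092, and 22 values were above 0.

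**Figure D5:**
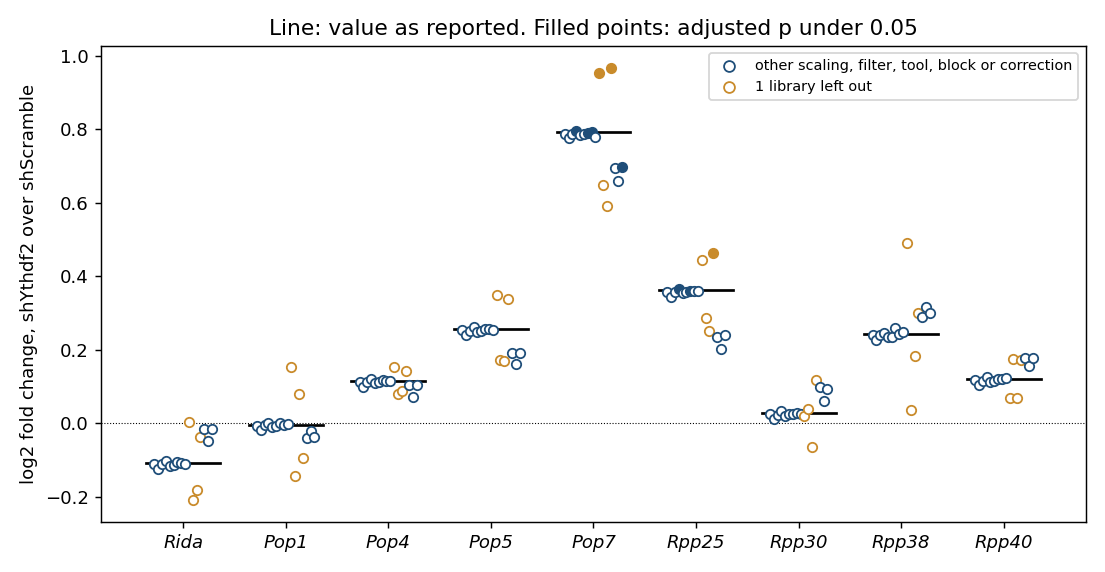
Log2 fold change of each tested member (vertical axis) in the reported fit (line) and in 16 refits (points), blue for another scaling, filter, tool, block or correction and orange for 1 library left out, with filled points at an adjusted p under 0.05. Pop7 ranges from 0.59 to 0.97 and Rpp25 from 0.20 to 0.46, all above 0, while Rida, Pop1 and Rpp30 have values on both sides of 0.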

How the data were processed

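RNA from 2 shScramble and 2 shYthdf2 libraries was analysed. The members and gene lists were chosen with earlier results of these data known. The authors deposited raw read counts per gene, made with featureCounts 2.0.3 over RefSeq exons of mm10 without strand, leaving out reads that fit several places or genes. Each read of a pair was counted. The submitters' processing notes also name fastp 0.19.4, HISAT2 2.2.1 and DESeq2 1.40.2. Gene lengths were deposited as the bases covered by all exons of a gene. Totals ran from 31113006 to 36422510 reads.

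Counts were fitted with edgeR 4.0.16 in R 4.3.3 (quasi-likelihood F test, two-sided, TMM scaling, filterByExpr with a minimum count of 10 and total of 15, no covariate, Benjamini-Hochberg over the 18341 genes tested). The biological coefficient of variation was 15.8%. Groups and replicate numbers came from the sample titles. All members and the genes of the subunit, RNA, mitochondrial and partner lists are named. From the tRNA and ribosomal RNA lists, genes with an adjusted p under 0.05 and the 2 largest differences among genes with a mean of at least 1 CPM were named. An item that this rule would name is not reported here. Marker lists are given as sums and counts. The standard error was taken from the fold change and F. At 2 against 2 the exact permutation test cannot give a p below 0.333 and was not run. Alternatives were 14 planned and 3 added, with DESeq2 1.42.0 and limma 3.58.1. Scripts were tested on simulated data. GC content and shared exon bases came from the GENCODE and deposited annotations, and promoters from RefSeq.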

Additional observations from a re-analysis of the deposited data

How the results depend on the processing

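The count of members called at an adjusted p under 0.05, 0 as reported, was 2 with no filter on low counts (Pop7 and Rpp25), 1 in DESeq2 (Pop7), and between 0 and 2 with 1 library left out. It stayed at 0 with other scalings, a filter at a mean of 1 CPM, halved counts, limma-voom, the study's own criteria, and either correction for GC content, which was added after seeing the data. At an unadjusted p the count of 2 became 1 with a GC correction and 1 with a GC and length correction, and lay between 1 and 3 with 1 library left out. Of the companion genes, 0 as reported, 4 were called with no filter, 4 in DESeq2, 1 with a GC and length correction, and 0 to 3 with 1 library left out. Of the genes tested in each setting, 3.91% were called as reported, 6.34% with no filter and 4.66% in DESeq2. With a GC correction 3.88% were called, and with a GC and length correction 4.8%. The cause of these shifts in the counts was not tested. Over all genes 718 were called as reported, 1938 with no filter, 1423 in DESeq2, and between 834 and 2288 with 1 library left out. The sign turned for 3 members, all with values near 0: Rida with 1 library left out (-0.21 to 0.0024), Pop1 with 1 library left out (-0.14 to 0.15) or no filter (2.18e-05), and Rpp30 with 1 library left out (-0.066 to 0.12). The members' median kept its sign throughout, from 0.081 to 0.18. A lone library left in a group is assumed to vary like the other group.

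The replicate numbers are not known to pair the libraries. The gap between replicates 1 and 2 correlated across genes between the groups (r = 0.32 over 18341 genes, which are not independent). With the replicate number as a block, 2 of the 9 members (Pop7 and Rpp25) and 7 of the 35 companion genes were called. This setting called 3525 genes in all, 19.2% of the 18341 tested. Pop1 was at 0.00033. With the block and a GC correction 1 of the 9 members (Pop7) and 6 of the 35 companion genes were called, where 16.6% of all genes were called.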

Other observations

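Replicate 1 stood above replicate 2 in both groups for 6 of the 9 tested members, against 30.7% of all genes tested. Between replicates 1 and 2 the genes with the highest GC content differed in opposite directions in the 2 groups: in the top 10% the median log2 difference of replicate 1 over replicate 2 was -0.065 in shScramble and 0.071 in shYthdf2, and in the lowest 10% it was 0.036 and -0.070.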
